A study of Mus musculus with 6 samples.

Results

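Cell cycle genes were followed in adrenal medulla, the catecholamine-releasing core of the adrenal gland, as a set of 35 listed genes for the cyclins and their kinases, for copying of DNA and for mitosis. A probe set, a group of short probes that together read a stretch of transcript, counted as a member when the platform's probe-gene table gave it a single symbol and that symbol was on the list. This found 90 probe sets for 34 of the 18193 genes that the array reads with a single symbol; Ccnb1 is not analysed here. The tissue came from male C57/Bl6 mice, taken 8 weeks after surgery that was either TAC, a transverse aortic constriction that narrows the vessel and puts the heart under pressure load, or a sham operation. There were 3 animals per group, each with the RNA of both medullae on 1 Affymetrix Mouse Genome 430 2.0 array, after microdissection from 12 µm frozen sections and 2 rounds of amplification. No other treatment or allele is named in the labels, and the age of the animals is not given in the sources used here.

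A tissue can grow by adding cells or by enlarging the cells it has. Cells that divide pass from G1, where D and E cyclins with Cdk4, Cdk6 and Cdk2 release E2F transcription factors, into S phase, where the Mcm helicase and Pcna copy DNA, and then into G2 and mitosis, run by cyclins A and B with Cdk1. Transcripts of the mitotic genes accumulate late in the cycle and are scarce in resting cells, whereas D cyclins and their kinases are also made by cells that do not divide. Most chromaffin cells of the adult medulla are differentiated and divide rarely. The comparison asks whether transcripts of cell division differed in the medulla under cardiac pressure overload.

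The deposited values are linear intensities after GCRMA, a background correction and summary method, and all levels below are their log2. A probe set was called detected on an array at log2 4 or more. The member values closest to that line were 4.0 for Prc1 and for Aurkb on sham array 1, which counted as detected. Closest below it were 3.996 for an Mcm7 probe set on sham array 1 and 3.97 for Mki67 on sham array 2, which did not count. Probe sets of different genes bind with different strength, so levels are compared between arrays and not between genes. SD is the spread between the 3 arrays of a group, and SE is the standard error of the limma fit.

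Tissue identity and array quality were checked first. All 9 measured chromaffin cell markers, such as Th, Dbh and Pnmt, were detected on all 6 arrays. Adrenal cortex, which borders the medulla and renews its cells, was carried along in variable amounts, with a summed intensity over its 9 measured markers of 2589 to 9277 after TAC and 1603 to 16584 after sham, and Nr5a1 was under log2 4 on every array. The log2 difference between the 3′ and the 5′ Gapdh control probe sets, larger where transcripts are shortened, was 5.15 in sham 1 and 4.71 in TAC 1 and lay between 2.88 and 3.98 in the other 4 arrays. Sham 1 and TAC 1 were both the lowest of their group at 18 of the 38 tested member probe sets (47.4%) and at 44.1% of all tested probe sets. The part of cortex carry-over or RNA shortening in the results below was not tested.

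Detection at log2 4 split the listed genes by their role in the cycle. The line was the same for probe sets that bind with different strength. A gene counted by any of its probe sets, of which there were 33 mitotic, 30 G1 and 27 replication probe sets. Of 16 measured mitotic genes, 9 were below log2 4 on all 6 arrays with every probe set, 3 were detected on some arrays, and 4 had a probe set detected on all 6. Of 9 genes for G1 cyclins, their kinases and Skp2, 8 were detected on all 6 arrays and 1, Cdk2, on none. Of 9 genes for DNA replication and nucleotide supply, 6 were detected on all 6 arrays, 2 (Mcm3 and Tyms) on none and Rrm2 on 1. Except for Pcna, detection of those 6 genes on every array rested on probe sets that may read other transcripts too. Counted as probe sets, 12.1% of the mitotic, 70.0% of the G1 and 25.9% of the replication probe sets were detected on all 6 arrays, beside 38.0% of the 34945 probe sets with a single symbol. In whole tissue, few cells with a transcript and little of it per cell cannot be told apart.

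**Figure D1:**
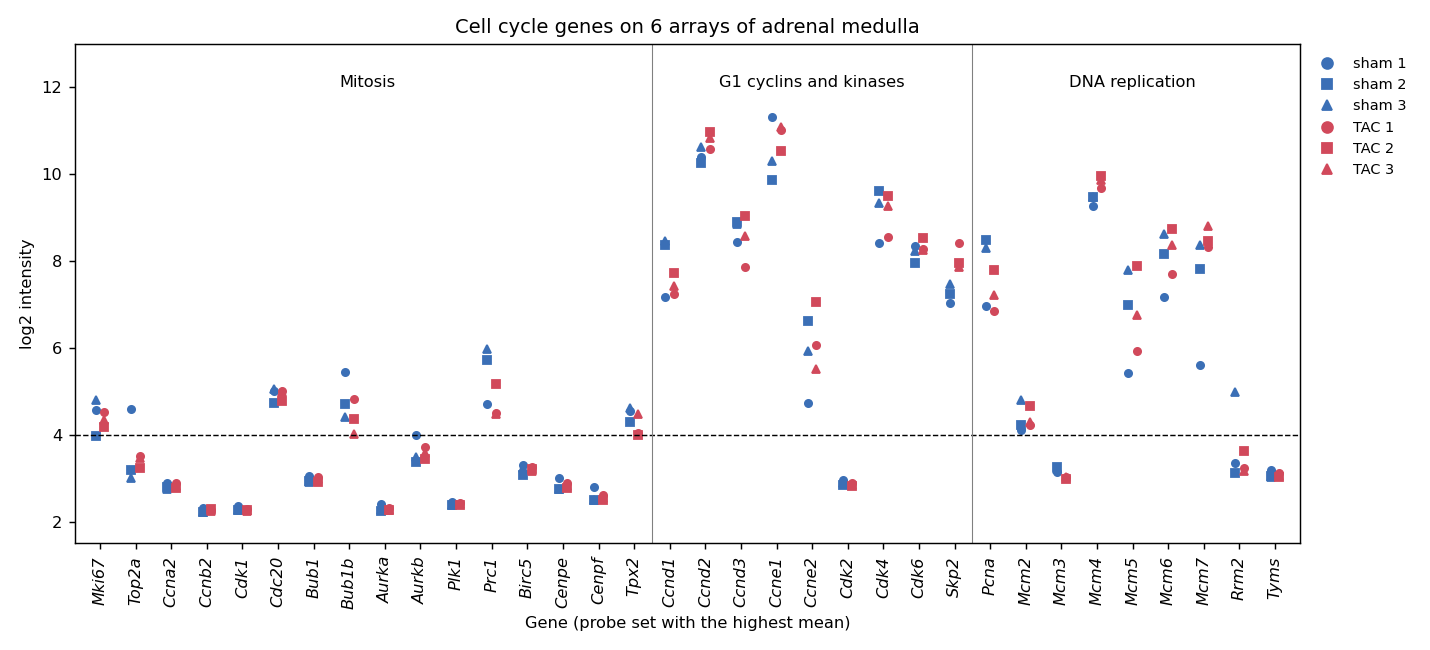
Log2 intensity (vertical axis) of the 34 measured cell cycle genes on the 6 arrays, each gene by its probe set with the highest mean; blue points are sham and red points TAC animals, marker shapes are replicate numbers and the dashed line is log2 4. Most mitotic genes lie under the line on every array, whereas 8 of 9 G1 genes lie above it on every array.

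The genes that define the mitotic state were at the bottom of the scale in both groups. Cdk1, the kinase that drives entry into mitosis, read 2.28, 2.26 and 2.25 after TAC and 2.35, 2.27 and 2.27 after sham. Ccnb2, a cyclin partner of Cdk1, read between 2.23 and 2.31 on the 6 arrays, and Ccna2, the S and G2 cyclin, stayed at or below 2.90. The group means of Cdk1 differed by -0.03, a value with no test because the probe set stayed under the detection line. The spindle kinases Plk1 (highest value 2.46) and Aurka (2.40), the checkpoint kinase Bub1 (3.06), the survivin gene Birc5 (3.31) and the kinetochore genes Cenpe (3.17) and Cenpf (2.79) were also below log2 4 on every array.

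Promoters of Cdk1, Ccnb2 and Plk1 are shown as examples of mitotic genes that were below log2 4 on every array, and that of the replication gene Mcm6, detected on every array by 1 probe set, for comparison. Promoters of mitotic genes often carry a cell cycle genes homology region (CHR), bound by the DREAM complex in resting cells, and CCAAT boxes, bound by NF-Y, and promoters of replication genes often carry E2F sites. The 150 bases upstream of the annotated start are given below from RefSeq (GRCm38.p6), 5′ to 3′ on the gene's strand, with matches on either strand in capitals to TTTGAA (CHR), to CCAAT, and to the E2F forms TTTCGCGC, TTTGGCGC, TTTCCCGC and TTTGCCGC.
Cdk1 (chr10:69352913-69353062, minus strand): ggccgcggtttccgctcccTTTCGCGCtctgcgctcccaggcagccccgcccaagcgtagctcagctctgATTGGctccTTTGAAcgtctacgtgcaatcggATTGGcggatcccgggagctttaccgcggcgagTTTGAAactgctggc
Ccnb2 (chr9:70421555-70421704, minus strand): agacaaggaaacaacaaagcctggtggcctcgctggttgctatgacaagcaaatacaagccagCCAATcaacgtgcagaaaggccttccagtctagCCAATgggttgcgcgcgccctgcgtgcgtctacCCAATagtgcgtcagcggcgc
Plk1 (chr7:122159285-122159434, plus strand): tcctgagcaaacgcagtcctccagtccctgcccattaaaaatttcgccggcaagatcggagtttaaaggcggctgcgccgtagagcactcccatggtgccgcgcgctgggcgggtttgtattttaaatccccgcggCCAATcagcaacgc
Mcm6 (chr1:128359706-128359855, minus strand): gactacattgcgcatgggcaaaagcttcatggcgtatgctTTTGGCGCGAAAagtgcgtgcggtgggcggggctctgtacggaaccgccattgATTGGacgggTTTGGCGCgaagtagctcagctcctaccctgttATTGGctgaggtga
In the first capital run of Mcm6, matches to E2F forms on the 2 strands overlap. In these 150 bases the CHR letters occur in Cdk1 and not in Ccnb2, Plk1 or Mcm6, and CCAAT occurs in each. The printed window leaves out CHR letters of Ccnb2 and Plk1. In the 250 bases upstream of the start, the CHR letters occur in Ccnb2 as well. With the 50 bases after the start included, they occur in Plk1 too, and still not in Mcm6.

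In the 250 bases upstream of the start, the CHR letters occurred in 6 of 14 mitotic genes with a promoter entry (42.9%), in 1 of 6 G1 genes (16.7%), in 1 of 8 replication genes (12.5%) and in 18.3% of all 27025 genes in the table. With the 50 bases after the start included, they occurred in 10 of 14 mitotic genes (71.4%) and in 20.2% of all genes. In the 250 bases upstream, CCAAT occurred in 13 of 14 mitotic (92.9%), 7 of 8 replication (87.5%) and 3 of 6 G1 genes (50.0%), beside 37.5% of all genes. There the E2F forms occurred in 3 of 8 replication genes (37.5%), 1 of 6 G1 genes (16.7%), 1 of 14 mitotic genes (7.14%) and 2.16% of all genes. Promoters were matched by symbol for 28 of the 35 listed genes, Ccnb1 among them. A match of letters is a description and not a measured site.

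The mitotic genes detected on some or all arrays read at most 5.97, on sham 3 for Prc1. Mki67, the antigen used to count cycling cells, read 4.53, 4.18 and 4.33 after TAC and 4.56, 3.97 and 4.81 after sham. The groups overlapped, with the highest and the lowest value both in sham animals, and the difference was -0.10 ± 0.29 SE (limma adjusted p = 0.993). Cdc20, an activator of the anaphase-promoting complex, read 5.02, 4.78 and 4.99 against 5.0, 4.74 and 5.05 with 1 probe set, whose identifier ends in x, the mark of probes that can bind other transcripts. Its other 2 probe sets were under log2 4 on every array.

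Prc1, which bundles microtubules for cytokinesis, had the smallest p-value of the mitotic genes. It read 4.50, 5.16 and 4.47 after TAC and 4.70, 5.72 and 5.97 after sham, a difference of -0.75 ± 0.41 SE (limma adjusted p = 0.847). Sham 2 and sham 3 were above every TAC array, and sham 1 was not. The highest value was on sham 3, the array with the highest sum of cortex markers. Sham 2, with the lowest sum of the arrays, read 5.72, and TAC 1, with the highest sum of the TAC arrays, read 4.50. The part of cortex in these values was not tested. The other Prc1 probe set gave -0.72 ± 0.46 SE. The 2 differences were -1.13 and -1.18 without sham 1, and -0.50 and -0.39 without sham 3.

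Bub1b, a spindle checkpoint kinase gene, read 4.82, 4.36 and 4.03 after TAC and 5.45, 4.71 and 4.40 after sham, a difference of -0.45 ± 0.37 SE (limma adjusted p = 0.946). Sham 1 was the highest array and TAC 3 the lowest, and the groups overlapped. The difference was -0.15 without sham 1, -0.26 without TAC 3 and -0.68 without sham 3. Tpx2, a spindle assembly factor gene, read 4.04, 4.0 and 4.48 against 4.54, 4.30 and 4.62 (-0.31 ± 0.25 SE, adjusted p = 0.943). For Bub1b and Tpx2 the other probe sets were detected on at most 1 array. This was a TAC array each time, at 4.30 on TAC 2 for Bub1b and 4.13 on TAC 1 for Tpx2.

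Of the mitotic and nucleotide genes, 3 were detected in sham animals only, on single arrays. Top2a, the DNA topoisomerase of dividing cells, reached 4.60 on sham 1 with 1 probe set and 4.08 on sham 3 with another, and its highest TAC value was 3.51. Aurkb, a kinase of the chromosomal passenger complex, reached 4.0 on sham 1 and at most 3.71 after TAC. Rrm2, the small subunit of ribonucleotide reductase, reached 4.99 on sham 3 and at most 3.63 after TAC. None of these entered the test, which required log2 4 on at least 3 of the 6 arrays, and in each case the other sham animals stayed below the line. Sham 3, which gave the Rrm2 value and the second Top2a value, also had the highest sum of cortex markers. TAC 1, with the highest sum of the TAC arrays, read 3.24 for Rrm2 and 2.2 with that Top2a probe set. The part of cortex in these values was not tested.

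The number of detected mitotic probe sets per array, out of 33, was 7, 7 and 5 after TAC and 8, 5 and 7 after sham. Over all 90 member probe sets it was 37, 39 and 36 against 36, 39 and 43, or 40.0% to 43.3% and 40.0% to 47.8%, beside 42.9% to 44.1% and 43.8% to 44.7% of all probe sets with a single symbol. The ranges of the groups overlapped. At a detection line of log2 5 or of log2 6, the number of mitotic genes detected on all 6 arrays was 0, while 7 of the 9 G1 genes remained above either line. At log2 3, which 54.4% of all probe sets with a single symbol reached on every array, 8 genes of each role passed.

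**Figure D2:**
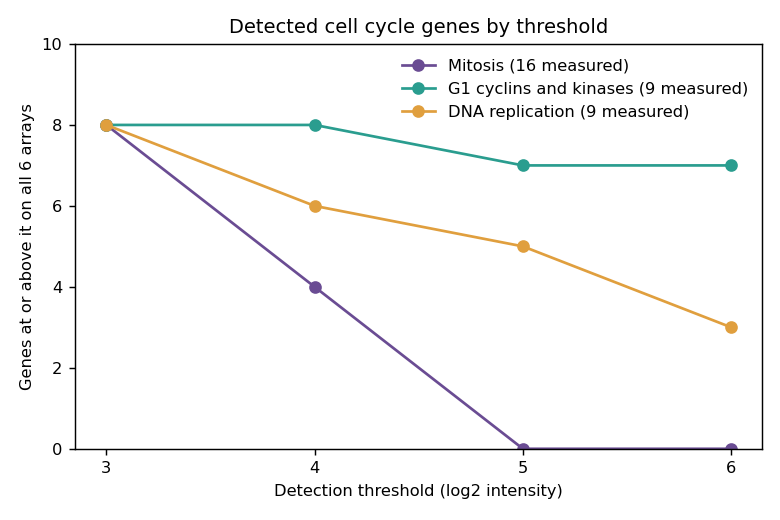
Number of cell cycle genes detected on all 6 arrays (vertical axis) at detection thresholds of log2 3 to log2 6 (horizontal axis), by role. The mitotic genes drop from 8 of 16 to 4 at log2 4 and to 0 at log2 5, and the G1 genes go from 8 to 7 of 9.

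Of the 90 member probe sets, 38 passed the filter for testing, for 19 genes. No member passed the threshold in limma, nor did any other probe set (adjusted p under 0.05 at 0 of 38 members and 0 of 18188 tested probe sets, 0%; smallest adjusted p 0.384). Of the 38, 18 were higher and 20 lower after TAC, with a median of -0.01 beside 0.05 over all tested probe sets. The mitotic probe sets were lower at 6 of 6 (median -0.38), the G1 probe sets at 11 of 22 (median 0.01) and the replication probe sets at 3 of 10 (median 0.10). Over all tested probe sets, 54.7% were higher. The 6 mitotic probe sets read 5 genes, with Prc1 read by 2, and their values reached at most 5.97. The lower sign of the mitotic probe sets includes Cdc20, whose difference rounds to 0 and which turned positive after quantile normalization, with array weights and without single arrays, and Mki67, which turned positive without sham 3. The median over all 38 was -0.25 without sham 1 and 0.09 without TAC 1.

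An unadjusted limma p under 0.05 was reached by 6 of the 38 member probe sets (15.8%), beside 6.94% of all tested probe sets. TAC readings were higher at 2 of the 6 and lower at 4, beside 4.65% and 2.29% of all tested. All 6 belong to only 3 genes, Ccnd2, Skp2 and Mcm7, and each of the 3 was also read in the opposite direction by another of its probe sets. Probe sets of 1 gene share their animals and transcript and are not independent. Without sham 1, 3 higher and 10 lower member probe sets reached that p, beside 13.7% of all tested. With array weights, 18 of the 38 passed the adjusted threshold (47.4%), beside 36.8% of all tested probe sets. Separation without overlap between the groups was seen at 4 probe sets higher and 4 lower after TAC (10.5% each), beside 9.01% and 4.01% of all tested.

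**Figure D3:**
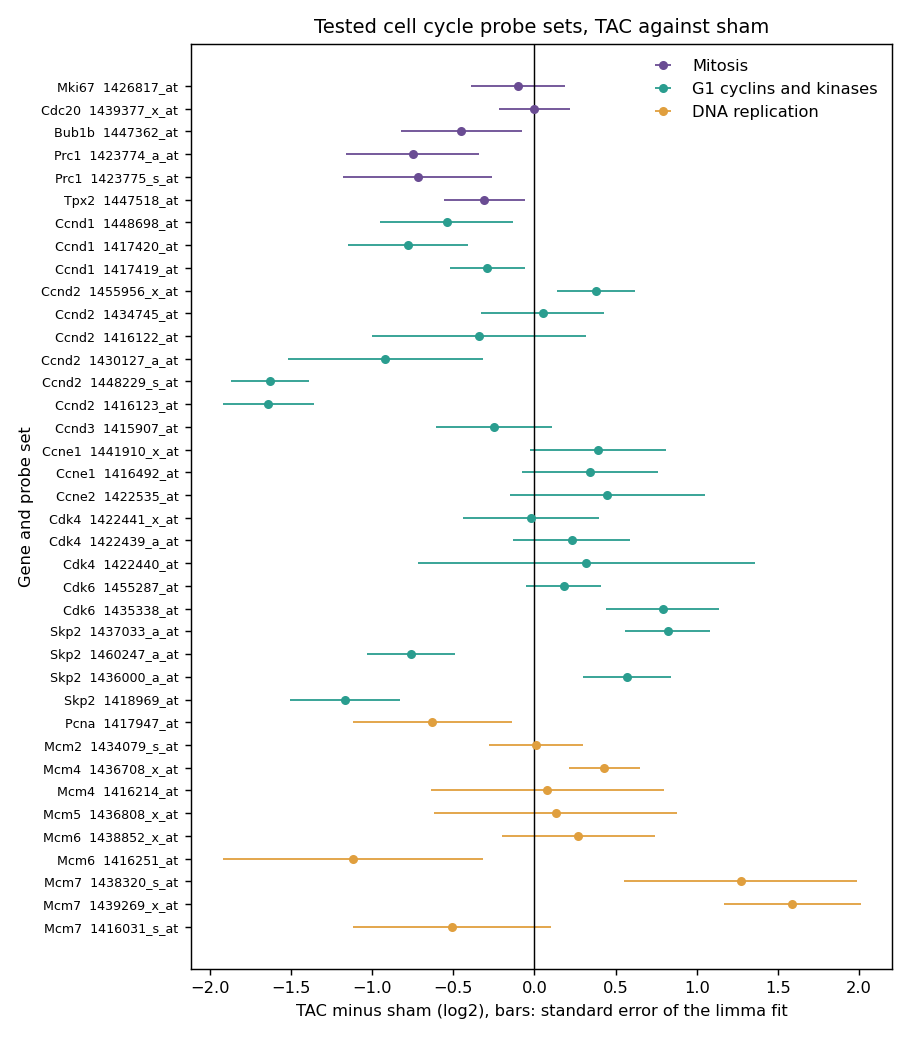
Difference of TAC minus sham on the log2 scale (horizontal axis) for the 38 tested cell cycle probe sets, with the standard error of the limma fit as bars and the role as colour. The differences run from -1.64 to 1.59, and the outermost on both sides belong to Ccnd2 and Mcm7, which other probe sets read on the opposite side.

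Ccnd2, the D cyclin with the most probe sets among the members, gave the largest lower readings of the set. Probe set 1448229_s_at read 6.76, 6.83 and 6.58 after TAC and 8.59, 8.35 and 8.11 after sham, a 3.10-fold difference (-1.63 ± 0.24 SE, limma adjusted p = 0.384). Probe set 1416123_at read 5.29, 4.83 and 4.52 against 6.57, 6.60 and 6.38, a 3.11-fold difference (-1.64 ± 0.28 SE, adjusted p = 0.384). At both, every TAC animal lay more than 1 log2 unit below every sham animal.

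The other probe sets of Ccnd2 did not show this gap. The brightest, 1455956_x_at, read 10.58, 10.98 and 10.83 after TAC and 10.39, 10.25 and 10.63 after sham (0.38 ± 0.24 SE, limma adjusted p = 0.895). The next 2 gave 0.05 ± 0.38 and -0.34 ± 0.66, and 1430127_a_at gave -0.92 ± 0.60 (adjusted p = 0.903). The remaining probe set, not tested, was detected only on sham 2 and sham 3, at 4.73 and 4.91, and lay at 3.91 to 3.94 in the TAC animals. The 2 low readings kept their sign under each alternative run, between -1.91 and -1.46 for 1416123_at and between -1.75 and -1.51 for 1448229_s_at. Which part of the transcript each probe set reads was not analysed here.

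Ccnd1, the D cyclin induced by growth factors, was lower after TAC with each of its 3 probe sets without passing the threshold. The brightest read 7.25, 7.72 and 7.43 after TAC and 7.17, 8.38 and 8.46 after sham (-0.54 ± 0.41 SE, limma adjusted p = 0.934). Sham 1 was as low as the TAC animals, and sham 2 and sham 3 were above them. The difference was -0.95 without sham 1, -0.35 without sham 2 and -0.31 without sham 3. The others gave -0.78 ± 0.37 (adjusted p = 0.776) and -0.29 ± 0.23. The 3 readings were negative in each alternative run, from -1.25 to -0.16. Fibroblasts also express D cyclins, and 6 of 8 fibroblast markers were lower after TAC (median -1.25), while 54.7% of all tested probe sets were higher. The other markers, Pdgfrb (0.81 ± 0.22 SE) and Pdgfra (0.11 ± 0.77), were higher. The summed intensity of the markers was 1754 to 2879 after TAC and 2300 to 5006 after sham. Of the markers, 0 passed the threshold and none was below log2 4 on every array. The part of fibroblasts in the D cyclin values was not tested.

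Ccnd3 read 7.86, 9.03 and 8.57 after TAC and 8.44, 8.90 and 8.86 after sham (-0.25 ± 0.36 SE, limma adjusted p = 0.982). The TAC animals held both its highest and its lowest value. Ccne1, the E cyclin that activates Cdk2, read 11.02, 10.53 and 11.08 against 11.31, 9.86 and 10.30 with a probe set of the x type (0.39 ± 0.42 SE, adjusted p = 0.979) and 0.34 ± 0.42 with the other. Ccne2 read 6.06, 7.05 and 5.52 against 4.74, 6.61 and 5.92 (0.45 ± 0.60 SE, adjusted p = 0.980). The groups overlapped at each of these E cyclin probe sets, and Cdk2, their kinase, was at or below 3.02 on every array.

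The G1 kinases Cdk4 and Cdk6, partners of the D cyclins, were detected in every animal. Cdk4 read 8.55, 9.49 and 9.26 after TAC and 8.41, 9.62 and 9.33 after sham, a difference of -0.02 ± 0.42 SE (limma adjusted p = 0.998). Replicates 1 of both groups were the lowest, and 1422440_at of the same gene read 3.81 and 2.86 there, under the detection line. Cdk6 read 8.28, 8.53 and 8.25 against 8.35, 7.95 and 8.23 (0.18 ± 0.23 SE, adjusted p = 0.980), and its second tested probe set gave 0.79 ± 0.35 (adjusted p = 0.748). Both Cdk6 readings were positive in each alternative run, from 0.06 to 1.03.

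Skp2, which marks the inhibitor p27 for destruction at the G1 to S transition, was read in opposite directions without overlap between the groups. The brightest probe set, 1437033_a_at, read 8.41, 7.95 and 7.87 after TAC and 7.03, 7.25 and 7.47 after sham, 1.77-fold higher (0.82 ± 0.26 SE, limma adjusted p = 0.581). Probe set 1418969_at read 4.48, 4.50 and 4.35 against 5.04, 5.60 and 6.22, 2.26-fold lower (-1.17 ± 0.34 SE, adjusted p = 0.552). All TAC animals were thus above all sham animals by 1 reading of the gene and below them by another.

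The remaining 2 tested Skp2 probe sets divided in the same way. Probe set 1436000_a_at gave 0.57 ± 0.27 SE (limma adjusted p = 0.787), with TAC values of 7.08 to 7.21 and sham values of 6.23 to 7.0. Probe set 1460247_a_at gave -0.76 ± 0.27 SE (adjusted p = 0.633), with TAC values of 7.04 to 7.24 and sham values of 7.50 to 8.22. None of the 4 changed sign in any alternative run.

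**Figure D4:**
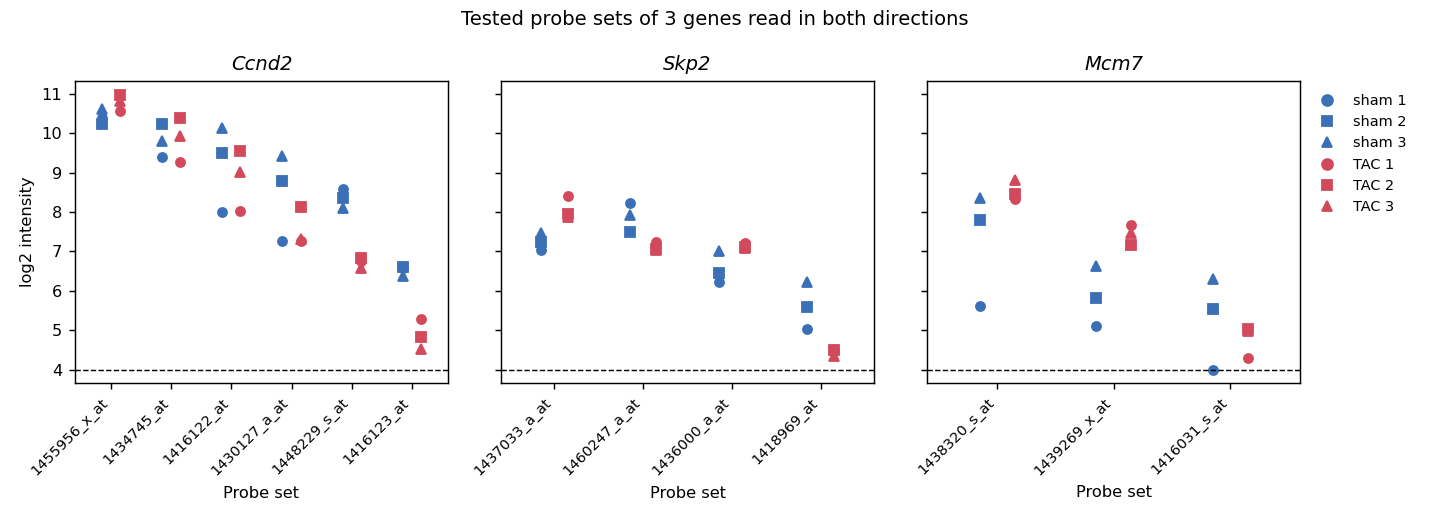
Log2 intensity (vertical axis) of each tested probe set of Ccnd2, Skp2 and Mcm7 on the 6 arrays; blue points are sham and red points TAC animals, marker shapes are replicate numbers and the dashed line is log2 4. For Skp2 the TAC animals lie above the sham animals at 2 probe sets and below them at the other 2.

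In DNA replication, Pcna, the sliding clamp of the replicative polymerases, read 6.84, 7.79 and 7.22 after TAC and 6.96, 8.49 and 8.30 after sham. The difference was -0.63 ± 0.49 SE (limma adjusted p = 0.939), and sham 1 lay among the TAC animals. Without sham 1 it was -1.11, and without sham 2 it was -0.35.

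The Mcm genes encode the 6 subunits of the helicase that opens DNA at replication forks. Mcm7 read 8.32, 8.47 and 8.81 after TAC and 5.61, 7.81 and 8.36 after sham (1.27 ± 0.72 SE, limma adjusted p = 0.860). Sham 1 stood far below the other arrays, and without it the difference was 0.44. Probe set 1439269_x_at read 7.68, 7.16 and 7.48 against 5.10, 5.82 and 6.62, 3.02-fold higher without overlap (1.59 ± 0.42 SE, adjusted p = 0.508). The third tested probe set, 1416031_s_at, gave -0.51 ± 0.61 (-1.15 without sham 1 and 0 without sham 3). The last was detected at 4.94 on sham 3 alone, the array with the highest sum of cortex markers. That probe set read 2.47 on TAC 1, which had the highest sum of the TAC arrays. The part of cortex was not tested.

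Mcm4 read 9.68, 9.97 and 9.86 after TAC and 9.26, 9.47 and 9.48 after sham with an x type probe set (0.43 ± 0.22 SE, limma adjusted p = 0.812). The TAC animals all lay above the sham animals there, while the other probe set gave 0.08 ± 0.72. Mcm5 read 5.94, 7.89 and 6.75 against 5.42, 7.0 and 7.79 (0.13 ± 0.75 SE, adjusted p = 0.998). Its replicates 1 were again the lowest of both groups.

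Mcm6 read 7.70, 8.73 and 8.36 against 7.18, 8.17 and 8.63 (0.27 ± 0.47 SE, limma adjusted p = 0.985), and its 1416251_at read 2.90, 5.13 and 3.48 against 3.58, 5.59 and 5.69 (-1.12 ± 0.80 SE). Only 3 of its 6 values there were above the line, so the size of the second difference is unreliable. Mcm2 read 4.22, 4.66 and 4.30 against 4.10, 4.23 and 4.81 (0.01 ± 0.29 SE, adjusted p = 0.998). Mcm3, with 5 probe sets at or below 3.37, and Tyms, the thymidylate synthase gene, with 4 at or below 3.19, were not detected on any array.

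The share of member probe sets higher after TAC is given by type of probe set. Of the 13 tested member probe sets whose identifiers end in x_at or s_at, types that can read more than 1 transcript, 8 were higher after TAC (61.5%, median 0.13), beside 63.6% of all tested probe sets of those types. Of the other 25, 10 were higher (40.0%, median -0.29), beside 53.0% of all other tested probe sets. The difference between the types was not tested. Over all tested probe sets the same medians were 0.14 for 2840 of those types and 0.03 for the other 15348. Leaving those types out, the genes detected on all 6 arrays numbered 3 mitotic, 8 G1 and 1 replication gene, Pcna, so that detection of Mcm2, Mcm4, Mcm5, Mcm6 and Mcm7 on every array rested on probe sets that may read other transcripts too. Of 10 member genes with several tested probe sets, 5 were read with both signs.

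Further genes of the cycle, from lists chosen for this comparison, gave a like split. Of 28 genes of the spindle, kinetochore and cytokinesis, 4 were detected on all 6 arrays and 17 were below log2 4 on all of them, among them the centromere histone gene Cenpa, the kinesin gene Kif20a and the ubiquitin-conjugating enzyme gene Ube2c. Of 17 retinoblastoma and E2F factors and their partners, 12 were detected on all 6 arrays. Foxm1 and Mybl2, transcription factors that switch on mitotic genes, were below log2 4 on all arrays, as were E2f4, E2f7 and E2f8 of the same list. Of 26 listed genes of growth control and ribosome building, 24 were measured and 19 were detected on all 6 arrays. Tsc2 and Max were below log2 4 on every array.

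The cyclin-dependent kinase inhibitors, which hold cells in G1, were detected for 4 of 7 genes, and Cdkn1c, Cdkn2a and Cdkn2b were below log2 4 on every array. Cdkn1b, which encodes p27, read 9.95, 9.64 and 9.46 after TAC and 9.42, 9.76 and 9.27 after sham (0.20 ± 0.26 SE, limma adjusted p = 0.980). Cdkn1a, which encodes p21, differed by 0.20 ± 0.28 and Cdkn2c by -0.41 ± 0.53. Cdkn2d read 5.12, 6.04 and 5.14 against 5.25, 7.29 and 7.31 (-1.18 ± 0.64 SE, adjusted p = 0.833), again with sham 1 beside the TAC animals. The list median was -0.11, and -0.34 without sham 1.

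None of the further lists held a gene past the threshold (0 of 4 kinase inhibitors, 0 of 12 retinoblastoma and E2F factors, 0 of 13 checkpoint genes, 0 of 18 licensing and fork genes, 0 of 6 spindle genes and 0 of 20 growth genes). At an unadjusted limma p under 0.05 there were 3 of these 73 genes (4.11%), each higher after TAC, beside 6.94% of all tested probe sets in either direction and 4.65% higher. Dnmt1, the maintenance DNA methyltransferase, read 9.30, 8.57 and 8.73 against 7.34, 7.78 and 7.82 (1.22 ± 0.30 SE, adjusted p = 0.465), and Orc5, an origin recognition subunit, differed by 0.65 ± 0.24 (adjusted p = 0.672). Incenp, the scaffold of the chromosomal passenger complex, read 8.10, 7.97 and 7.88 against 6.20, 6.83 and 7.42 (1.17 ± 0.35 SE, adjusted p = 0.560). Dnmt1 and Incenp were read by x type probe sets.

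The other genes named by smallest p in their list also missed the threshold. The activator factor E2f3 differed by 0.71 ± 0.32 and Lin54, a DREAM complex subunit that binds the CHR, by 0.72 ± 0.40. The damage-induced gene Gadd45a differed by -1.43 ± 0.68, the checkpoint kinase gene Atr by 0.49 ± 0.26 and the kinesin gene Kif22 by 0.37 ± 0.34. The nucleolar gene Ncl differed by -1.20 ± 0.59 and Igf1r, a growth factor receptor gene, by -0.48 ± 0.24. Among growth genes 10 of 20 were higher (median -0.04), among E2F and retinoblastoma factors 7 of 12 (0.18) and among licensing and fork genes 11 of 18 (0.18), beside 54.7% of all tested probe sets. The growth median ran from -0.27 without sham 1 to 0.18 without TAC 1. The median of the E2F and retinoblastoma factors was -0.02 without sham 1 and 0.38 without sham 2, and that of licensing and fork genes was 0.04 without TAC 2 and -0.12 with array weights. The checkpoint median of -0.03 became -0.37 when TAC 2 was left out and 0.17 when sham 2 was. The spindle median of 0.17 became 0.02 when sham 1 was left out.

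**Figure D5:**
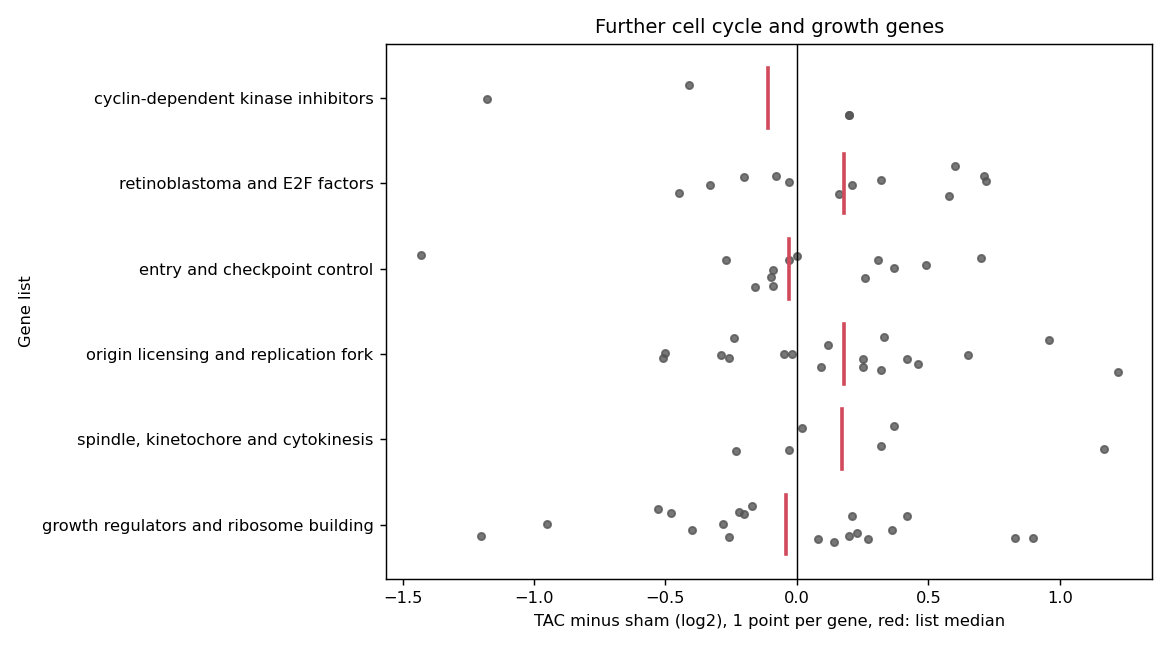
Difference of TAC minus sham on the log2 scale (horizontal axis) for tested genes of 6 further lists, with 1 point per gene and the list median as a red bar. The medians lie between -0.11 and 0.18, and each list has genes on both sides of 0.

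Other cell types of the adrenal gland were followed by their markers. Over 8 macrophage markers the summed intensity was 3580 to 5898 after TAC and 2219 to 3437 after sham, ranges that did not overlap. Of 6 tested markers 2 were higher, beside 54.7% of all tested probe sets, and C1qc was below log2 4 on every array. Those 2, Csf1r (1.01 ± 0.25 SE) and C1qb (0.69 ± 0.35), were the brightest and weigh most in a linear sum. Mrc1, Cd14, Adgre1 and C1qa were lower. Csf1r alone of the 6 was higher without overlap between the groups, as were 9.01% of all tested probe sets. Over 5 sustentacular and Schwann cell markers the sum was 3185 to 3733 against 1939 to 2569, with 4 of 5 higher. It rests mainly on the brightest, L1cam, at 11.35, 11.19 and 11.24 against 10.90, 10.20 and 10.26 (0.81 ± 0.27 SE). Sox10 was higher too (0.77 ± 0.24), Fabp7, counted as higher, differed by 0.01, and S100b was lower (-0.21). Over 8 endothelial markers the sum was 693 to 1143 against 584 to 904, with Pecam1, Cdh5 and Kdr below log2 4 on every array. The lymphocyte markers Cd3e, Cd3g and Cd79a were below log2 4 on every array. Of the ganglion neuron markers, 6 of 6 were lower after TAC (median -0.67), while 54.7% of all tested probe sets were higher. Only 3 of these 6 were detected on all 6 arrays. Map2 alone was lower without overlap between the groups (-0.83 ± 0.33 SE), as were 4.01% of all tested probe sets. No tested marker of these lists passed the threshold, and their part in the cell cycle values was not tested.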

How the data were processed

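The authors deposited 1 table of probe set intensities on a linear scale, already background-corrected; the submitters' processing notes name GCRMA without a version or settings. The 6 columns do not share 1 distribution and were used as log2 values without further scaling. Of 45101 probe sets, 64 controls were left out. Symbols came from GEO's platform annotation, and all 90 member probe sets had a RefSeq gene (GRCm38.p6), with 0 symbols changed. The 18188 probe sets detected (log2 4 or more) on 3 or more arrays, in either group, were compared in limma 3.58.1 under R 4.3.3, by a 2-sided moderated test (lmFit, then eBayes) without covariates, with Benjamini-Hochberg adjustment over all of them and a threshold of 0.05. The median standard error was 0.39, and precision is limited by how few arrays there were. The fit was tested on simulated data. A gene is read by its probe set with the highest mean.

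The members and lists were chosen with earlier results of these data known. Values on each array are given for members detected on all 6 arrays, the 2 with the smallest p in each role, Mki67, Top2a, Cdk1 and Pcna, and members detected in 1 group only. Of each further list, the 2 genes with the smallest p are named, and every kinase inhibitor. Lists are described by counts and medians, with no set test.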

Additional observations from a re-analysis of the deposited data

How the results depend on the processing

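The number of probe sets past the threshold was 0 under each alternative except array weights, where it was 6698 of all (36.8%) and 18 of the 38 members (47.4%), 5 of them higher after TAC, with a member median of -0.26. The weights ran from 0.143 for sham 1 to 6.11 for TAC 3. At an unadjusted limma p under 0.05, 1263 probe sets passed as reported, 2395 without sham 1 and 639 without sham 2. The replicate block gave 0 past the threshold and 3005 at an unadjusted limma p under 0.05. The groups share replicate numbers, but no source says that they pair animals, so the numbers were not taken as pairs. The deviations of same-numbered animals correlated at 0.76, 0.78 and -0.22, and TAC 3 correlated best with number 1.

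The member median of -0.01 was -0.29 without probe sets ending in x_at or s_at and lay between -0.25 and 0.09 when 1 array was left out. The count of member probe sets detected on all 6 arrays was 32 as reported, 44 at log2 3, 18 at log2 6 and 21 without those probe sets, and 32 to 34 with 1 array left out. The median of all tested differences moved from 0.05 to -0.02 with cyclic loess.

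Of 38 member probe sets, 24 kept their sign in each alternative run. With array weights the sign turned for Mcm4 1416214_at (-0.98), Cdk4 1422440_at (-0.62), Ccne2 (-0.58), Mcm2 (-0.20), Ccnd2 1434745_at (-0.07), Mcm5 (-0.59), Mcm6 1438852_x_at (-0.05) and Cdc20 (0.07). Other scalings turned Mcm2 (-0.02 centred, 0 with cyclic loess), Ccnd2 1434745_at (-0.01 quantile, -0.07 cyclic loess) and Cdc20 (0.04 quantile). With values under log2 4 set to 4, Mcm4 1416214_at read -0.06 and Cdk4 1422440_at 0. With sham 1 and TAC 1 both left out, an alternative chosen after seeing the data, Mcm4 1416214_at read -0.28, Cdk4 1422440_at 0, Mcm2 -0.04 and Mcm5 -0.07.

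With 1 array left out, the ranges that crossed 0 were -0.58 to 0.44 for Mcm4 1416214_at, -0.08 to 0.49 for Cdk4 1422439_a_at, -0.67 to 0.99 for Cdk4 1422440_at, -0.38 to 0.26 for Cdk4 1422441_x_at and -0.06 to 0.88 for Ccne2. They were -0.13 to 0.23 for Mcm2, -0.21 to 0.35 for Ccnd2 1434745_at, -0.95 to 0.12 for Ccnd2 1416122_at, -0.53 to 0.65 for Mcm5 and -0.14 to 0.58 for Mcm6 1438852_x_at. They were -0.10 to 0.07 for Cdc20, -0.33 to 0.08 for Mki67, -0.52 to 0.07 for Ccnd3 and -0.08 to 0.63 for Ccne1 1416492_at. The causes were not tested.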
